A study of Ascaris suum with 28 samples.

Results

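The genes described here are 129 of the 15399 gene identifiers measured in the parasitic roundworm Ascaris suum whose RNA was nearly undetected in the oocyte library, low in zygotes of uterus region 1 and at RPKM 10 or more in zygotes of region 2, 3 or 4. RPKM is the deposited unit of the authors, reads scaled to transcript length and to library size. The members were chosen on the poly(A) values of the oocyte library (under RPKM 1), of region 1 (under RPKM 10) and of regions 2 to 4 (RPKM 10 or more in at least 1 of them). Values in those 5 libraries are therefore given as a description, without a test.

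In nematodes the oocyte carries maternal RNA that supports the zygote, and transcription from the new genome adds RNAs of its own later. Ascaris zygotes complete meiosis, build the eggshell and move along the uterus before pronuclear fusion and the slow cleavages that follow release. The libraries measured levels of RNA and not its synthesis.

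All samples came from a North American wild population and from pools of material from many female worms. The 13 poly(A) libraries were 1 each of oocytes with wall, zygotes of uterus regions 1, 2, 3 and 4, embryos at 24 h (1 cell), 46 h (1-2 cells), 64 h (2-4 cells), 96 h (10-26 cells), 116 h (32-64 cells) and day 7 (about 256 cells), and L1 and L2 larvae. The 0 h embryos are the region 4 zygotes, and later embryos developed from them in culture. The outer shell was removed in the cold for zygotes and warm for embryos and larvae. The other 15 columns were the free, middle and heavy polysome gradient fractions of region 4 zygotes (day 0) and of embryos of day 1 (1 cell), day 3 (4-8 cells), day 5 (32-64 cells) and day 7 (about 256 cells). Such a gradient sorts RNA by how many ribosomes it carries, from free to heavy. That the oocyte and 64 h columns are the poly(A) libraries, and not total RNA of those stages, was inferred from the table being one of mRNAs. With bulk RNA, fewer cells of a type and less RNA per cell cannot be told apart. No gene names come with the identifiers, so roles of single genes are not given.

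Libraries differed in ways that touch these genes. In the oocyte library 23.1% of all genes were listed at 0 and in the L2 library 29.8%, against 5.25% to 17.0% in the other poly(A) libraries. In L2 only 30 genes had a value above 0 and under 0.5, compared with 1506 in L1, so low values are nearly missing from L2. The gradient columns carried a further scaling, given with the fractions. Depth is unknown, and each stage had 1 poly(A) library.

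The 129 genes were not wholly absent before region 2. Their oocyte median was RPKM 0.1, with 60 listed at 0, and their region 1 median was 4.3, with 126 already at RPKM 1 or more. The median was 6.7 in region 2, 9.8 in region 3 and 12.2 in region 4, and 38, 64 and 90 of the genes were at RPKM 10 or more there. The values increased at each step from region 1 to region 4 in 38 genes. Most stayed low: the highest uterus value was under RPKM 20 in 81 genes and 50 or more in 7, with a median of 15.9.

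At the edge of the rule, 11 members were at RPKM 0.9 in the oocyte library, and 6 genes that met the other conditions were at 1 and were left out. In region 1 the members closest to the limit were at 9.9 and the nearest genes outside at 10.5. For the highest value of regions 2 to 4, 5 members were at 10.0 and 1 gene outside was at 9.9. The table is rounded to RPKM 0.1, so the pairs at 0.9 and 1 and at 10.0 and 9.9 are 1 rounding step apart.

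The genes fell into groups by where they reached RPKM 10. There were 54 that did so in region 4 alone, 36 in region 4 and also in region 2 or 3, and 39 in region 2 or 3 but not in region 4. Of the last group, 27 reached it in region 3 alone and 7 in region 2 alone. In the group of 36, 22 were at RPKM 10 or more in all of regions 2, 3 and 4.

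**Figure D1:**
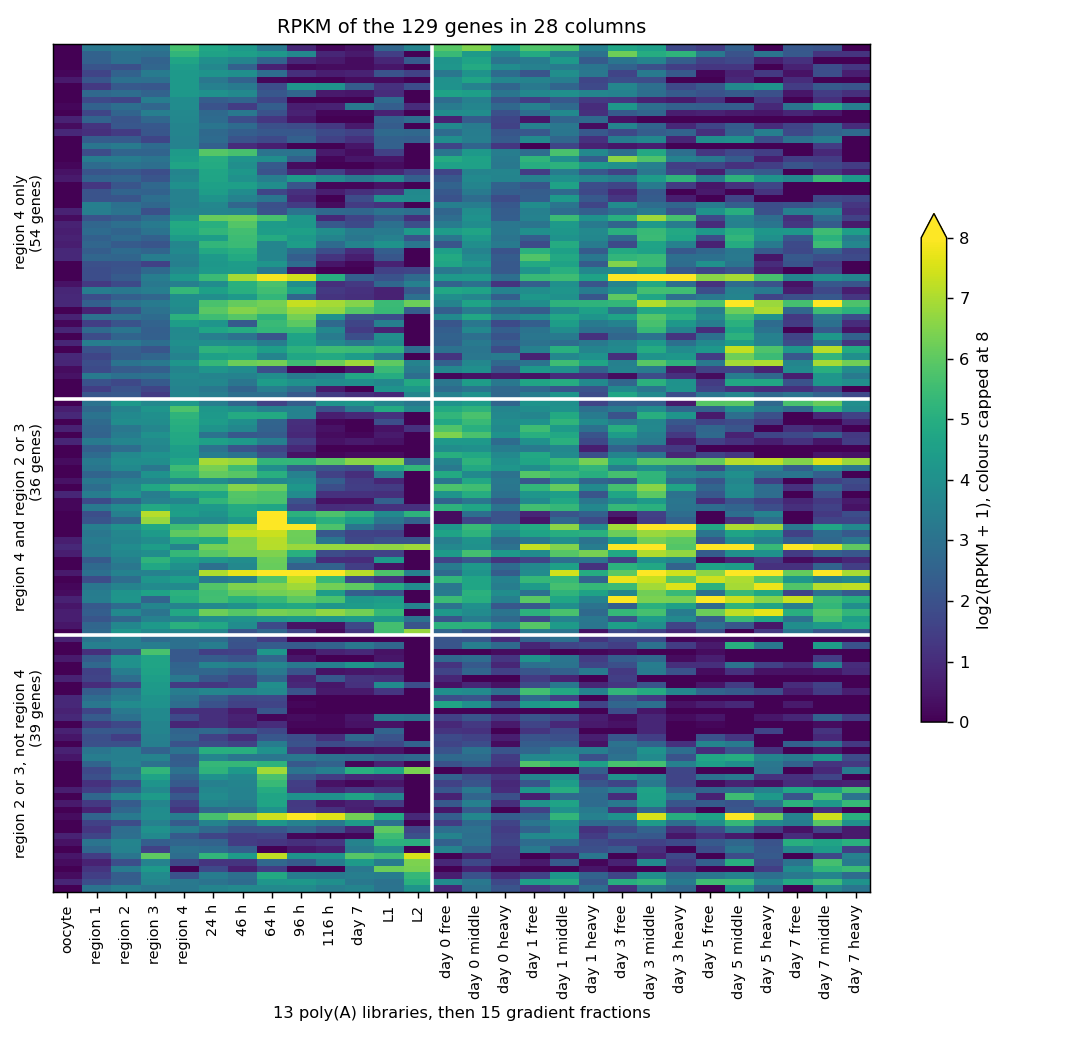
Level of each of the 129 genes (rows) in the 13 poly(A) libraries and 15 gradient fractions (columns), as log2(RPKM + 1). Rows are grouped by the uterus regions in which a gene reached RPKM 10 and then ordered by the library of its highest poly(A) value. The oocyte column is dark throughout by the choice of the genes, and the poly(A) median falls from RPKM 12 at 64 h to 1.6 at 116 h.

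The highest values in the uterus belonged to region 3. ASU_05245 was at RPKM 0 in oocytes, then 2.8, 10.3, 137.8 and 21.5 across regions 1 to 4, 16.2 at 24 h, 27.6 at 46 h, 405.4 at 64 h, 34.3 at 96 h, 53.6 at 116 h, 34.7 at day 7, and 13.1 (L1) and 35.3 (L2) in larvae. It peaked in region 3 and again at 64 h, with lower values in the libraries on either side of each. ASU_12996 followed the same course, at 0 in oocytes, then 3.2, 5.1, 107.4 and 12.6 across regions 1 to 4, 13.3 at 24 h, 18.6 at 46 h, 309.3 at 64 h, 21.5 at 96 h, 32.5 at 116 h, 20.9 at day 7, and 7.8 (L1) and 4.6 (L2) in larvae. Both were low in the gradients, where ASU_05245 had at most RPKM 10.6 and ASU_12996 at most 6.3, each in the heavy fraction of day 5.

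That pairing of region 3 with 64 h was shared by other genes. On RPKM + 1, 20 of the 129 genes were at least 2-fold higher in region 3 than in both region 2 and region 4. Of these, 13 (65%) were also at least 2-fold higher at 64 h than at both 46 h and 96 h, compared with 3 of the other 109 (2.75%). Among all 7406 genes at RPKM 10 or more in regions 2 to 4 the shares were 63 of 135 (46.7%) and 65 of 7271 (0.894%). The same 2 libraries therefore stood apart for genes outside the 129 as well. Of the 20 genes, 8 stayed under RPKM 10 in all 15 fractions, against 9 of the other 109. Among the 7406 genes the counts were 14 of 135 and 151 of 7271. Of the 20, 18 belonged to the 39 genes that did not reach RPKM 10 in region 4. Within those 39 the counts were closer, at 7 of 18 and 5 of 21. The part of the region 3 and 64 h libraries in the values was not tested. Leaving the region 3 library out of the rule leaves 102 genes.

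In region 4 the highest was ASU_14941, at RPKM 0 in oocytes, then 8.1, 11.8, 19.5 and 64.0 across regions 1 to 4, 76.9 at 24 h, 152.7 at 46 h, 163.4 at 64 h, 74.0 at 96 h, 3.6 at 116 h, 2.1 at day 7, and 1.9 (L1) and 0 (L2) in larvae. In poly(A) RNA it kept climbing after the uterus and was low by 116 h. As deposited, the mean of its 3 gradient fractions was 29.1 on day 1 and 16.1 on day 5. The columns of those days differ in their scaling, given below. ASU_00854 was at 0.6 in oocytes, then 5.5, 11, 17.2 and 53.6 across regions 1 to 4, 17.7 at 24 h, 15.1 at 46 h, 10.4 at 64 h, 10.8 at 96 h, 2.9 at 116 h, 8.4 at day 7, and 28.8 (L1) and 11.8 (L2) in larvae. It was highest in region 4, lowest after the oocyte at 116 h and higher again in L1. In region 2 the highest were ASU_02281 at 18.4 and ASU_08614 at 17.0, and both had at least that level in region 4, at 18.4 and 30.8.

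**Figure D2:**
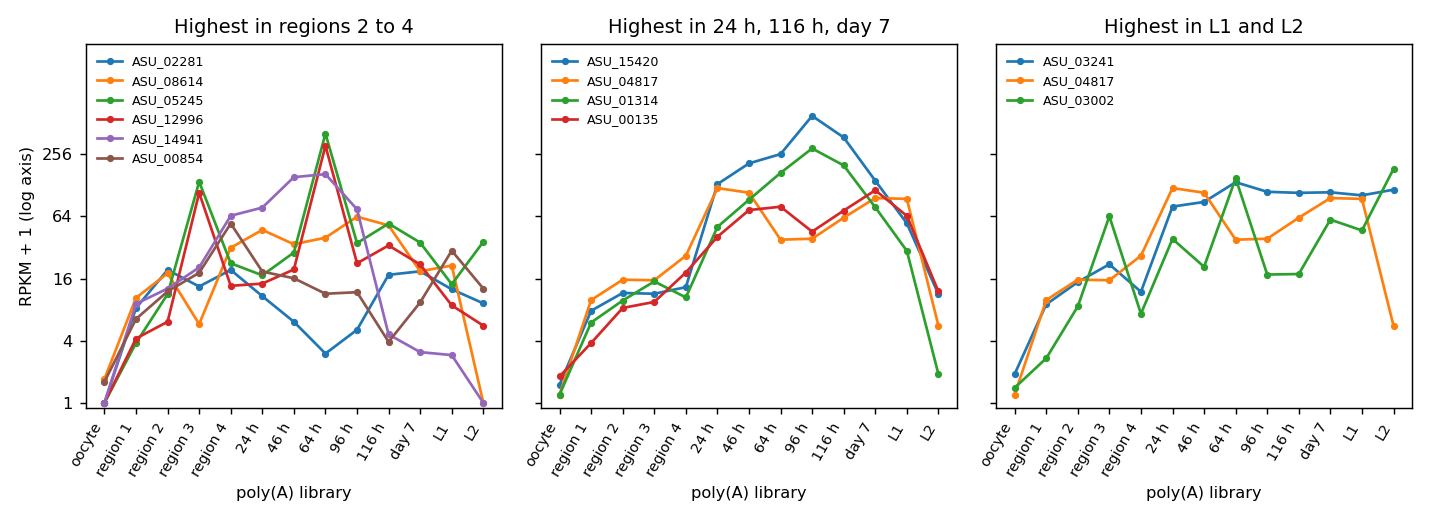
RPKM + 1 on a log axis in the 13 poly(A) libraries for the genes with the highest value in regions 2 to 4 (left), at 24 h, 116 h or day 7 (middle) and in larvae (right), 1 line per gene. ASU_05245 and ASU_12996 peak in region 3 and at 64 h, while ASU_15420 and ASU_01314 peak at 96 h, at 602 and 290.8.

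The next question was whether the zygote RNAs were also found in libraries the rule did not use. The day 0 gradients were made from region 4 zygotes. In them 77 of the 129 genes (59.7%) were at RPKM 10 or more in at least 1 fraction, compared with 48.3% of all genes. The share differed by group. It was 40 of the 54 genes of region 4 alone, 30 of the 36 genes of region 4 with region 2 or 3, and 7 of the 39 genes that did not reach RPKM 10 in region 4. Of the 151 genes that were low in the oocyte and in all uterus regions and first reached RPKM 10 at 24 h, 23 did so in the day 0 fractions. Over all days and fractions, 112 of the 129 genes (86.8%) reached RPKM 10 and 17 did not, compared with 68.0% of all genes reaching it. The 129 were chosen for RPKM 10 in the uterus and all genes were not, so neither share of all genes is a like background. A closer background is the 7406 genes at RPKM 10 or more in regions 2 to 4. Of these, 14 of the 135 with the region 3 peak and 151 of the other 7271 never reached it in a fraction. The counts for the members were 8 of 20 and 9 of 109, a larger share in both parts. Beside these genes, which were not matched for level, the members reached RPKM 10 in the fractions less often, not more.

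After the uterus the median of the genes stayed near its region 4 level for 3 libraries and then declined. It was RPKM 14.6 at 24 h, 12.6 at 46 h and 12 at 64 h, then 4.6 at 96 h, 1.6 at 116 h and 1.6 on day 7. It was 4.3 in L1 and 0 in L2, where 66 of the genes were listed at 0. The medians of all genes were 8.4, 7.7, 5.3, 4.1, 3.3, 4.6, 8.8 and 4.8 in these libraries. The count at RPKM 10 or more was 87 at 24 h, 71 at 64 h, 35 at 116 h, 28 at day 7, and 40 (L1) and 26 (L2) in larvae. The steady median up to 64 h did not hold for each gene. From 46 h to 64 h, 21 of the genes were 2-fold higher on RPKM + 1 and 22 were 2-fold lower. The 3 groups also differed, with their medians given below.

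The poly(A) maximum lay in a uterus region for 42 genes (32.6%, all genes 22.5%) and between 24 h and 64 h for 50 (38.8%, all genes 20.6%). It lay at 96 h or 116 h for 17 (13.2%, all genes 11.9%), on day 7 for 3 (2.33%, all genes 6.12%) and in a larval library for 17 (13.2%, all genes 27.6%). The rule asked for a high value in regions 2 to 4 and a low one in the oocyte, where 11.3% of all genes peaked. It thereby favours uterus maxima and shifts the other shares, so these shares are a description only. RPKM 10 was reached again in a poly(A) library from 24 h onwards by 104 of the 129 (80.6%, all genes 66.5%), and 25 did not reach it. All genes include those under RPKM 10 in the uterus, so 66.5% is not a like background. Of those 25, 13 belonged to the 39 genes of region 2 or 3 without region 4 and 9 to the 54 of region 4 alone. In the 39 genes the medians were 13 in region 3, 4.8 in region 4, 6.2 at 24 h and 9.2 at 64 h. In the 36 genes they were 14.25, 23.8, 21.45 and 37.95, and in the 54 genes 5.35, 13, 17.55 and 9.6.

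**Figure D3:**
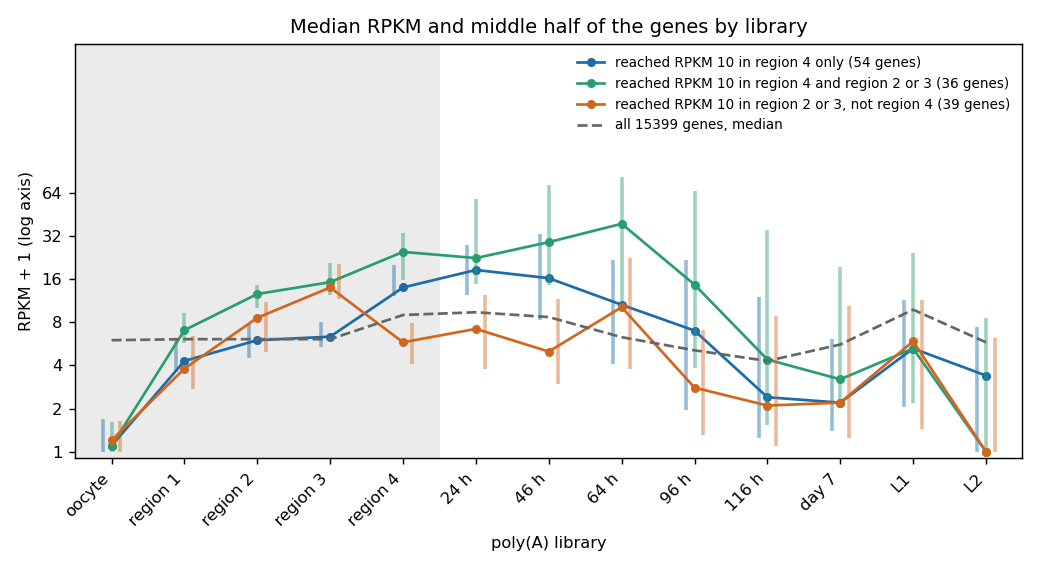
Median RPKM + 1 (points and lines, log axis) and the range from the lower to the upper quartile (bars) in each poly(A) library for the 3 groups of genes, with the median of all 15399 genes dashed. The shaded libraries chose the genes. At 116 h the medians of the groups of 54 and 39 genes (1.4 and 1.1) lie below the dashed line at 3.3, and at day 7 that of the group of 36 (2.2) does too.

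Neighbouring libraries after the uterus had no replicate, so changes between them were counted by size alone: at least 4-fold on RPKM + 1, with RPKM 10 or more in at least 1 of the 2 libraries. Between 24 h and 46 h none of the 129 genes was 4-fold higher (0.052% of all genes) or lower (0.039%). From 46 h to 64 h 11 were higher (all genes 0.325%) and 4 lower (0.39%). Those 11 were 8.53% of the members. From 64 h to 96 h 2 were higher (all genes 1%) and 18 lower (3.16%), and 11 of the 18 belonged to the 39 genes of region 2 or 3 without region 4. A gene high at 64 h alone can count in both of these steps. At 64 h 16 of the 129 genes were at least 2-fold above both 46 h and 96 h, and 13 of those had the region 3 peak too. The rule used region 3, so the counts of these 2 steps are a description only.

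From 96 h to 116 h none was higher (all genes 0.422%) and 15 were lower (0.974%), none of them among those 39. Between 116 h and day 7 the count was 1 higher (all genes 2.01%) and 6 lower (0.24%), a direction opposite to that of all genes. From day 7 to L1 12 were higher (all genes 7.89%) and none lower (0.318%), a share of 9.30% close to the background. From L1 to L2 4 were higher (all genes 3%) and 19 lower (9.68%). In all, 62 of these steps were downward and 30 upward. Of the 62, 18 were from 64 h to 96 h and 19 from L1 to L2, where low values are nearly missing. These totals have no share of all genes beside them, so they are a count and not a trend of these genes.

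The fall during cleavage was tested with the 1-cell stage against the 32-64-cell stage. For each of the 2 stages the poly(A) library and the mean of the 3 gradient fractions stood in as replicates, as the series design text treats them, in a limma fit of 8 libraries with stage and preparation as terms. None of the 4 values compared was used to choose the genes, but the fit also holds the region 4 poly(A) library, which was. All 129 passed the filter of RPKM 1 in at least 2 libraries, 2 of them only through that library, and neither was called. Without it, 67 of 127 fell and 9 rose. Of them 67 fell (all genes tested 24.9%) and 10 rose (16.6%), at an adjusted p under 0.05, which is 51.9% and 7.75% of the members. The median log2 change was -1.33, beside -0.03 for all genes tested. Among 7261 other tested genes at RPKM 10 or more in regions 2 to 4, 24.6% fell and 13.8% rose. The count of falling genes was 31 of 54, 18 of 36 and 18 of 39 in the 3 groups, and 54 of 102 without the 27 genes of region 3 alone.

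The median of the 67 falling genes was RPKM 16.2 at 24 h, 13.8 at 46 h, 8.2 at 64 h, 1.6 at 96 h and 0.3 at 116 h. None was at RPKM 10 at 116 h or on day 7, and 9 were in L1. Their middle-fraction median was 12.9 for day 0, then 15.7, 10.1, 3.1 and 1.7 for the later days in order. As deposited, the gradient mean declined less than the poly(A) RNA, with median log2 changes of -1.93 and -3.21. The gradient columns carried the scaling given below, with factors of 0.74, 1.21 and 0.668 on day 1 and 1.24, 2.36 and 1.47 on day 5. The 2 changes are therefore not on a like scale, and the share of the scaling in the gap was not tested. A change more positive in the gradient mean than in poly(A) RNA was seen in 114 of the 129 genes (88.4%) and in 89.5% of all genes tested, so it was no property of these genes.

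ASU_07380 fell furthest, from RPKM 58.5 to 0.5 in poly(A) RNA (24 h and 116 h) and from 23.3 on day 1 to 1.87 on day 5 in the gradient mean. Its log2 change was -4.20 ± 0.56 (SE, limma adjusted p = 3.6e-05). Before that it was at 0 in oocytes and at 2.6, 5, 5 and 19.6 along regions 1 to 4. ASU_08968 had a log2 change of -4.15 ± 0.58 (limma adjusted p = 5.1e-05), from RPKM 28.6 to 0 in poly(A) RNA and from 28.1 to 1.73 in the gradient mean. Both genes belong to the group of region 4 alone, and both preparations fell for each.

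The 10 genes that rose had a median of RPKM 13.8 in region 4, 50.3 at 24 h, 79.05 at 64 h, 113.05 at 96 h and 90.0 at 116 h. ASU_01314 was at RPKM 0.2 in oocytes, then 5, 8.8, 14 and 9.5 across regions 1 to 4, 49.6 at 24 h, 91.8 at 46 h, 168 at 64 h, 290.8 at 96 h, 198.6 at 116 h, 77.5 at day 7, and 28.7 (L1) and 0.9 (L2) in larvae. Its log2 change from the 1-cell to the 32-64-cell stage was 2.52 ± 0.43 (limma adjusted p = 0.000245). ASU_15420 was at 0.5 in oocytes, then 6.8, 10.6, 10.4 and 12.2 across regions 1 to 4, 130.5 at 24 h, 208 at 46 h, 256.2 at 64 h, 602 at 96 h, 371.8 at 116 h, 141 at day 7, and 53.9 (L1) and 10.3 (L2) in larvae. It had a log2 change of 2.38 ± 0.49 (limma adjusted p = 0.00106). Without the day 5 gradient this was 1.91, with an adjusted p of 0.0517 in limma. Both genes were lowest in oocytes and highest at 96 h.

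**Figure D4:**
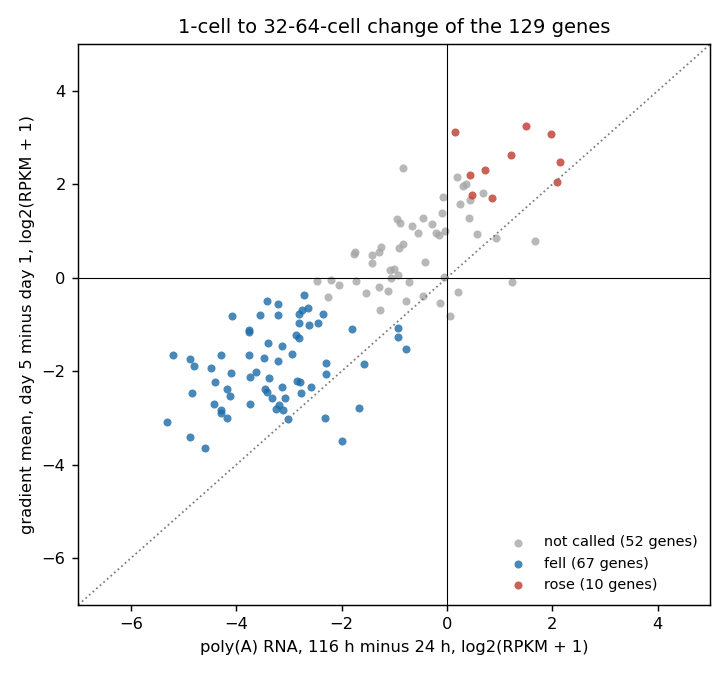
Change of each of the 129 genes from the 1-cell to the 32-64-cell stage on log2(RPKM + 1), in poly(A) RNA (horizontal) and in the mean of the gradient fractions (vertical), coloured by the limma call; the dotted line marks equal change. The 67 genes that fell lie below 0 in both preparations. With gradient values as deposited, 114 of the 129 points lie above the dotted line.

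From 32-64 to 256 cells 8 of the 129 genes fell (all genes tested 1.2%) and 4 rose (6.55%) in the same limma fit, at 6.20% and 3.10% of the members. The 8 that fell had a median of RPKM 82.1 at 96 h, 18.5 at 116 h and 3.5 on day 7. ASU_03201 was at RPKM 0 in oocytes, then 2.6, 6.3, 17 and 22 across regions 1 to 4, 8.8 at 24 h, 10.6 at 46 h, 55 at 64 h, 149.2 at 96 h, 40.6 at 116 h, 2.5 at day 7, and 1.2 (L1) and 0 (L2) in larvae. It was higher at 32-64 cells than at 1 cell (log2 change 2.06, limma adjusted p = 0.00295), although its poly(A) value was already below that of 96 h. From 32-64 to 256 cells it fell, with a log2 change of -3.30 ± 0.48 (limma adjusted p = 0.000298). Without the preparation term the second call was lost (limma adjusted p = 0.0566). ASU_09673, which went from RPKM 31.2 to 4.4 in poly(A) RNA and from 89.5 to 12.4 in the gradient mean, had a log2 change of -2.67 ± 0.50 (limma adjusted p = 0.00239), and its call was lost without the day 5 gradient (adjusted p = 0.16, limma).

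The 4 that rose had a median of RPKM 0.65 at 116 h, 8.7 at day 7 and 23.65 for L1, and 3 of them belong to the group of 39. ASU_11987 was at RPKM 0 in oocytes, then 1.3, 9, 19 and 0 across regions 1 to 4, 2.4 at 24 h, 0.6 at 46 h, 1.7 at 64 h, 0 at 96 h and 116 h, 8.3 at day 7, and 73.3 (L1) and 81 (L2) in larvae. It was seen in regions 2 and 3, nearly lost, and back by day 7, with higher poly(A) values in larvae. Its gradient mean went from RPKM 0.6 on day 5 to 31.1 on day 7. The log2 change of ASU_11987 from 32-64 to 256 cells was 3.77 ± 0.58 (limma adjusted p = 0.000468). ASU_08950 had a log2 change of 2.44 ± 0.53 (limma adjusted p = 0.00649), from RPKM 1.4 to 10.9 in poly(A) RNA. The calls of ASU_11987 and ASU_08950 were lost without the 116 h library or without the day 5 gradient, with limma adjusted p from 0.071 to 0.132, and that of ASU_08950 also without the day 7 gradient (limma adjusted p = 0.113) and without the preparation term (limma adjusted p = 0.0729). The count for this step is not firm: 2 calls were left without the 116 h library or without the day 5 gradient, and 18 were made without the 24 h library or without the day 1 gradient. Without the day 7 poly(A) library 9 genes rose (6.98%, all genes tested 10.6%) and 2 fell (1.55%, all genes tested 0.683%).

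The 2 highest members in each larval library were ASU_03241 and ASU_04817 for L1 and ASU_03002 and ASU_03241 for L2. ASU_03241 was at RPKM 0.9 in oocytes, then 8, 13.8, 21 and 10.9 across regions 1 to 4, 78.7 at 24 h, 87.4 at 46 h, 136.3 at 64 h, 109.8 at 96 h, 107.3 at 116 h, 108.6 at day 7, and 101.4 (L1) and 115.2 (L2) in larvae. From 24 h onwards it varied by less than 2-fold. ASU_03002 was at 0.4 in oocytes, then 1.7, 7.6, 63.2 and 6.3 across regions 1 to 4, 37.7 at 24 h, 19.8 at 46 h, 148.9 at 64 h, 16.5 at 96 h, 16.7 at 116 h, 58.6 at day 7, and 45.8 (L1) and 183.5 (L2) in larvae, the highest L2 value of the 129 genes. It carried the region 3 and 64 h peaks described above. ASU_04817 was at 93.7 in L1 and 4.6 in L2, after 119.5 at 24 h and 37.1 at 64 h, and ASU_00135 was at 113.7 on day 7 and 63.8 in L1.

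The gradients were compared next, in a limma fit of 15 columns with fraction and day as terms, so that the 5 days stand in for replicates. The rule used no gradient library, and 127 of the 129 genes passed the filter. Of these 47 had less in the heavy than the free fraction (all genes tested 19.6%) and 27 had more (29.8%), at an adjusted p under 0.05, which is 37.0% and 21.3% of the members tested. The median heavy minus free difference was -0.33 on the log2 scale, beside 0.12 for all genes tested. Among other tested genes at RPKM 10 or more in regions 2 to 4, 18.1% were lower and 42.8% higher. More genes were lower than higher in each group, with 19 lower and 9 higher of 54, 13 and 11 of 36, and 15 and 7 of 37 tested. With no day term 10 were lower (7.87%, all genes tested 4.42%) and 11 higher (8.66%, all genes tested 17.6%).

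For comparison, the genes new in region 1 (62 genes, under RPKM 1 in the oocyte library and at 10 or more in region 1) had 15 lower and 16 higher calls. Those new at 24 h (150 of 151 tested) had 33 of each. Whether these sets differ from the 129 was not tested. In the step from 1 cell to 32-64 cells 30 of the 62 fell and 6 rose, and 61 of the 151 fell and 27 rose. Of all genes tested 24.9% fell and 16.6% rose. The 151 were chosen for a high value at 24 h, which is 1 of the values compared in that step. Falls among them are favoured by that choice, so their count is no like comparison.

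Of the 47 genes lower in the heavy fraction, 31 were lower on all 5 days, and of the 27 higher, 17 were higher on all 5. ASU_01388 had RPKM 25.1, 17.1 and 3.7 in the free, middle and heavy fractions of day 0, then 27.9, 23.4 and 3.9 on day 1, 88.8, 42.4 and 6.2 on day 3, 15.4, 7.3 and 1 on day 5 and 3.2, 1.5 and 0 on day 7. It was ordered free, middle, heavy on every day, with a difference of -2.76 ± 0.31 (limma adjusted p = 6.4e-06). ASU_03241, steady in poly(A) RNA from 24 h onwards, had 154.9, 88.1 and 9.5 on day 1 and 360.1, 186.2 and 65.2 on day 7. Its heavy minus free difference was -2.66 ± 0.36 (limma adjusted p = 1.92e-05). Its free value was above its heavy value on every day. With no day term its call was lost (limma adjusted p = 0.0649).

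ASU_12204 lay the other way, with RPKM 1.3, 8.1 and 9.1 in the free, middle and heavy fractions of day 0, 0.7, 12 and 15.8 on day 1, 1.1, 16.3 and 17.9 on day 3, 1.7, 74.5 and 43.2 on day 5 and 3.5, 37.5 and 14.7 on day 7. Its free value was the lowest on every day, and the difference was 2.89 ± 0.38 (limma adjusted p = 1.41e-05). ASU_03002 had a difference of 2.37 ± 0.34 (limma adjusted p = 2.87e-05) at low values, with free at 0 on all days and heavy between 1.3 and 10.5. The 27 genes higher in the heavy fraction had poly(A) medians of RPKM 24.5 (24 h) and 15.4 (116 h). The 47 lower had 11.5 and 0.6.

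**Figure D5:**
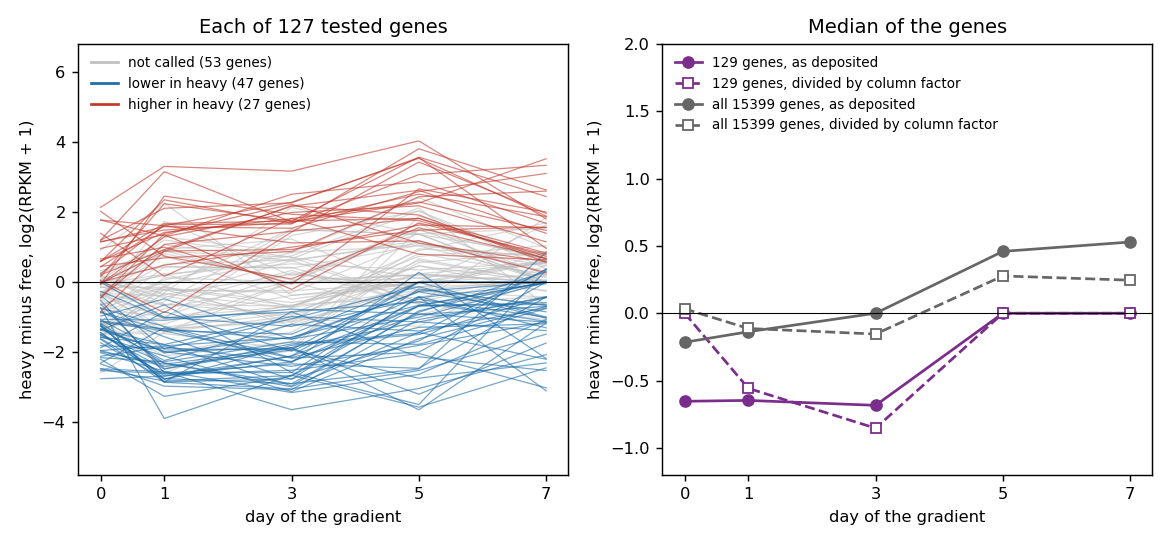
Heavy minus free difference on log2(RPKM + 1) by day of the gradient. Left, 1 line for each of the 127 genes tested, coloured by the limma call; right, the median of the 129 genes and of all genes, as deposited (filled) and after each column was divided by its factor (open). As deposited, the median of the 129 genes is -0.65, -0.65 and -0.68 on days 0, 1 and 3 and 0 on days 5 and 7, below that of all genes on each day.

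The fraction columns were scaled before deposit. In 9 of the 15 some decimals up to RPKM 5.0 never occur, as when 1-decimal values are multiplied by a factor above 1 and rounded again, and in the other 6 some decimals are over-frequent. The factors found were 1.114, 1.66 and 0.602 for free, middle and heavy of day 0, 0.74, 1.21 and 0.668 of day 1, 0.839, 1.38 and 0.949 of day 3, 1.24, 2.36 and 1.47 of day 5 and 0.871, 2.13 and 1.14 of day 7. No factor other than 1 was found in the 13 poly(A) columns. As deposited, the RPKM totals of the fractions ran from 236086 to 918364. Divided by their factors, they ran from 331348 to 428589 in the middle and heavy columns and from 485357 to 725903 in the free columns. What the factors stand for is not given in the sources used here. With the columns divided, 49 of the 126 genes tested were lower in heavy RNA and 28 higher, including 46 of the 47 and all 27 called before. The shares of all genes tested were 22.2% lower and 34.4% higher. The step from 1 cell to 32-64 cells had 78 falling genes (60.5%, all genes tested 38.1%) and 9 rising (6.98%, all genes tested 15.7%), with a median of -1.71 against -0.43 for all genes tested.

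Whether gradient position shifted with age was asked as a slope of the heavy minus free difference per day. Of 127 genes 11 had a positive slope in limma (all genes tested 14.2%) and none a negative one (0.363%), so the members' 8.66% lay below the background. At an unadjusted p under 0.05 there were 33 of the 127, beside 4891 of all 13771 genes tested. The calls depended on the scaling of the columns and on the days included, and the cause was not tested. After division by the factors, limma called 0 members and 0 of all 13444 genes tested. At an unadjusted p under 0.05 there were then 20 of 126 members and 2522 of all genes tested. The heavy to free ratio of the factors themselves went from -0.89 (log2, day 0) to 0.39 (day 7). Without day 1 the count of members called was also 0, as was that of all genes tested. At an unadjusted p under 0.05 there were 21 of 125 members and 3415 of 13490 genes. Without day 0, 3 or 5 the members called were 3, 2 and 5 (2.38%, 1.59% and 3.94%), beside 3.94%, 5.47% and 8.81% of all genes tested. Without day 7 there were 22 (17.3%, all genes tested 29.2%). ASU_15128, at heavy minus free -2.48, -2.82, -2.67, -0.45 and -0.04 over the 5 days, had a slope of 0.42 ± 0.11 per day (limma adjusted p = 0.0226), and after division of 0.30 with an adjusted p of 0.202 in limma.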

How the data were processed

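Poly(A) and gradient RNA was converted to cDNA by random priming, per the labels' protocols. Bowtie 0.12.7 is listed in the submitters' processing notes. The sources used here give no genome build, annotation or counting tool. The authors deposited RPKM with 1 decimal, 28 columns for 18 of the 28 samples; the other 10 samples, total and rRNA-depleted libraries among them, were not analysed here. Depth cannot be read from these values, so no counting interval is given.

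The scale was log2(RPKM + 1), which understates changes of low genes, and the tests were those of limma 3.58.1 (R 4.3.3) with an intensity trend, RPKM 1 in at least 2 libraries and Benjamini-Hochberg adjustment over all genes tested (threshold 0.05). Residual degrees of freedom were 3 for stages, 8 for fractions and 6 for the slope. The polysome value of a stage was the mean of its 3 fractions. Nothing says that the 2 preparations of a stage came from separate cultures, so p-values may measure technical spread. The genes named for a test are the 2 called members with the largest change each way among those with a single sign over the preparations or days. For the description the 2 highest in each of regions 2 to 4, 24 h, 64 h, 116 h, day 7, L1 and L2 are named. Fits were checked on simulated data. Column factors were estimated from the decimals of values up to RPKM 30. The members and sets were chosen with earlier results of these data known; the factor division, the region 3 with 64 h count and the 3 groups were added after the table was seen. Alternatives covered pseudocount, filter, scaling and left-out libraries. Gene lists planned by product name were not used, since the identifiers carry no names.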

Additional observations from a re-analysis of the deposited data

Results flagged for a closer look

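The heavy minus free difference of 11 of the 127 genes tested (8.66%, all genes tested 14.6%) changed with day in the limma interaction test of fraction by day. Of the 11, 4 kept 1 sign over all 5 days. The 2 with the largest slope among those 4 were ASU_15128, at 0.42 log2 units per day, and ASU_00135, at 0.37. All 11 calls were lost after the fraction columns were divided by their factors, where the slopes of ASU_15128 and ASU_00135 were 0.30 and 0.23, with limma adjusted p-values of 0.202 and 0.258.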

How the results depend on the processing

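The number of genes the rule finds was 85 with an oocyte limit of RPKM 0.5, 74 with a region 1 limit of RPKM 5, 48 with RPKM 20 to reach and 41 with at least 2 of the 3 regions. It ran from 75 to 122 when 1 of regions 2, 3 and 4 was left out. Between neighbouring libraries 194 member steps were 2-fold apart and 51 were 4-fold apart with a pseudocount of 5, against 92. From 1 cell to 32-64 cells the 77 calls became 50 with the heavy fraction alone as polysome value and 47 to 79 with 1 library left out; 47, with 36 falling and 11 rising, was without the 116 h library. From 32-64 to 256 cells the 12 calls became 6 with a pseudocount of 5, 1 with no filter, 3 without the preparation term and 2 to 18 with 1 library left out. Without the day 7 poly(A) library the 11 calls were mostly rising, as were those of all genes (10.6% rose and 0.683% fell). For heavy against free, the 74 calls became 21, 11 higher and 10 lower, with no day term (all genes tested 17.6% and 4.42%), and 54 to 71 with 1 day left out. Quantile normalization moved the median of all genes from 0.12 to -0.05 there, with 19 members higher and 61 lower. For the slope per day the 11 calls became 5 with no filter (3.88%, all genes tested 8.81%) and 0 to 22 with 1 day left out. By limma with quantile normalization there were 0, with 22 at an unadjusted p under 0.05 beside 2604 of all 13771 genes tested. After division by the factors, chosen after seeing the data, there were 0, with 20 unadjusted beside 2522 of all 13444 genes tested. The cause of these differences was not tested. The preparation and day terms are the replicate blocks of these fits; without the preparation block the calls from 1 cell to 32-64 cells were 55, and the labels give no replicate numbers for any other pairing.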
